A study of Macaca mulatta with 9 samples.

Results

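ALDOC, the aldolase isozyme best known from brain, was examined in macaque ovaries of different ages together with 9 other genes of the low-oxygen response and of sugar breakdown, namely ALDOA, ENO1, LDHA, HK2, PGK1, SLC2A1, ADM, ANGPTL4 and VEGFA. All probe sets that carry one of these 10 gene symbols in the array annotation were taken, which gave 18 of the 52865 probe sets on the array. ALDOC itself was chosen by its higher level in every old ovary, so its old contrasts are given as a description with no test. The other 9 genes were named for their function, with earlier results of these data known. A single symbol is carried by 15 of the 18, which belong to 8 genes. The other 3 probe sets, of ALDOA, PGK1 and ENO1, carry several symbols and were tested but not named. PGK1, which has no other probe set, and VEGFA, for which the annotation used here has none, were not analysed here.

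RNA came from a piece of 1 ovary of each of 9 rhesus monkeys (Macaca mulatta), 1 monkey and 1 biotin-labelled Affymetrix array each. The 3 age groups, of 3 females each, were compared, called young (3 to 4 years, cycling and never bred), middle-aged (7 to 8 years, with good reproductive capacity) and old (18 to 19 years, with reproductive capacity lost). The young and middle-aged ovaries were taken at about proestrus, and all 9 animals were perfused through the heart with cold Krebs-Heinseleit buffer under deep anaesthesia before the ovaries were frozen in liquid nitrogen. The study compared the groups to find genes whose ovarian expression changes with age. An ovary is named below by its group and replicate number, as in old 1.

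Cells that run short of oxygen stabilise the alpha subunits of the hypoxia-inducible factors, which pair with ARNT and switch on genes for glucose uptake, glycolysis, lactate production and new vessels. Aldolase splits fructose bisphosphate into its triose phosphates, and its forms include that of muscle (ALDOA) and that of brain (ALDOC). In the ovary, the granulosa cells of the avascular follicle live largely on glycolysis, and the corpus luteum that forms after ovulation is one of the fastest growing vascular tissues of the adult.

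Each value below is an intensity on the linear scale of the deposited table, and intensities of different probe sets are not set against each other. Medians of the 9 arrays lay between 24.3 and 25.9. A probe set was called when its limma p, adjusted by the Benjamini-Hochberg method over all 52766 non-control probe sets, was under 0.05 and its fold at least 1.5. In old versus young, 82 probe sets were called, 14 higher and 68 lower, which is 0.155% of those tested. In old versus middle-aged 0.0341% were called, in middle-aged versus young 0.0019%, and in old versus the young and middle-aged means combined 0.116%. The label of the old group was checked on oocyte markers. The study had already reported some, such as ZP3 and BCL2L10, as lower in these old ovaries, so the check is not independent. The summed intensity of 17 oocyte genes was 3277 to 9199 in young, 2139 to 6609 in middle-aged and 498 to 668 in old ovaries, and 9 of the 17 were called lower in old versus young. Only ZP4 went the other way, at 222 to 391 in old and 137 to 194 in the younger ovaries. The young and middle-aged sums overlapped, so they do not check these groups against each other. Old 1 stood somewhat apart, with a median correlation of 0.957 with the other arrays, against 0.965 to 0.983 for the rest.

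ALDOC was even in the 6 younger ovaries and higher in all 3 old ones. Its brighter probe set read 113, 178 and 123 in young, 179.8, 139 and 154 in middle-aged and 359, 881 and 653 in old ovaries. Every old ovary thus lay above every younger one, old 2 highest and old 1 lowest of the 3, as the choice of the gene required. The group means were 138 ± 34.8, 158 ± 20.8 and 631 ± 262 (SD, n = 3 each), and the log2 fold change was 2.13 (SE 0.32) in old versus young and 1.92 in old versus middle-aged, or 4.38-fold and 3.78-fold. In a piece of whole ovary, fewer cells of a type and less RNA per cell cannot be told apart, nor can more cells and more RNA per cell.

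The second ALDOC probe set gave the same order among the old ovaries. It read 93.9, 122 and 74.9 in young, 137, 88.8 and 92.3 in middle-aged and 223, 354 and 279 in old ovaries, with no overlap between the old ovaries and the others. Its log2 fold change was 1.56 in old versus young and 1.43 in old versus middle-aged. Over the 9 arrays, both probe sets had a correlation of 0.976 in log2 intensity.

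Young and middle-aged ovaries, which the choice of ALDOC did not use against each other, did not differ in ALDOC beyond their spread. The difference between them was 0.21 on the log2 scale for the brighter probe set, with a 95% interval from -0.51 to 0.94, and 0.13 for the other, with an interval from -0.44 to 0.71. A difference of up to about the upper bound is therefore not excluded by these 6 ovaries. Without any 1 array, the log2 fold change of the brighter probe set lay between 1.84 and 2.49 in old versus young. As ALDOC was chosen for this difference, that range is a description and no support for it.

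**Figure D1:**
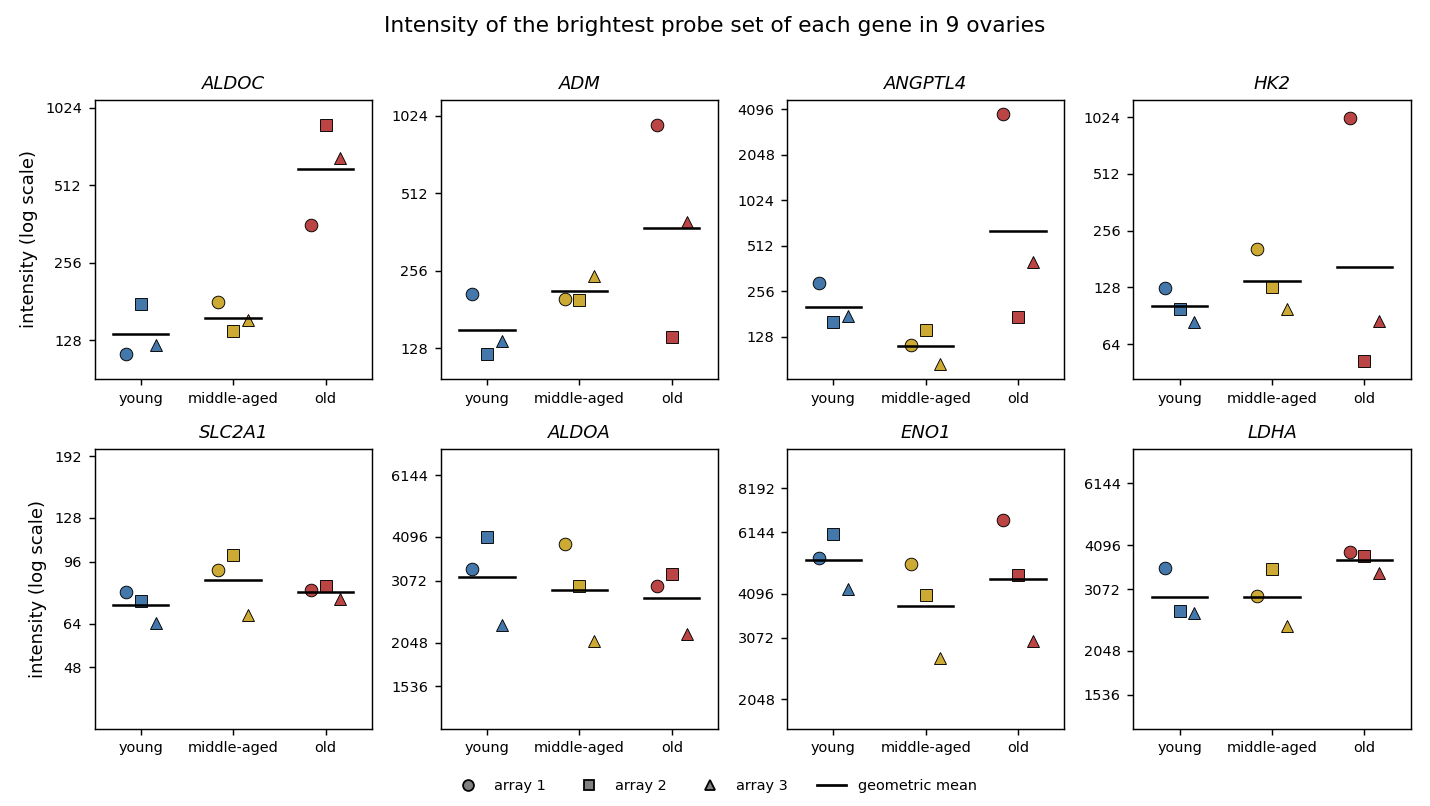
Intensity of the brightest probe set of each of 8 genes in 9 ovaries, on a log axis whose range differs between panels. Circles, squares and triangles are the arrays numbered 1, 2 and 3 of a group, and the black line is the geometric mean of the group. ALDOC is higher in all 3 old ovaries (359 to 881), whereas ADM, ANGPTL4 and HK2 stand out in old 1 and the other 4 genes overlap between all groups.

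The other 7 measured genes did not share this pattern. Of their 13 probe sets, 0 were called by limma in old versus young, in old versus middle-aged or in old versus the young and middle-aged means combined, with smallest adjusted p of 0.378, 0.586 and 0.334. At an unadjusted p under 0.05, the counts were 0, 1 and 2 of 13, beside 13.5%, 7.87% and 13% of all probe sets tested. In middle-aged versus young, 0 of all 15 probe sets were called and 0 had an unadjusted p under 0.05, beside 3.18% of all probe sets. The median log2 fold change of the 13 probe sets was 0.06 in old versus young, where that of all probe sets was 0.01. All 3 old ovaries lay above the other 6 in 2 of the 15 probe sets, both of ALDOC, beside 2.45% of all probe sets. Since ALDOC was chosen for this order, nothing is read from that count.

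**Figure D2:**
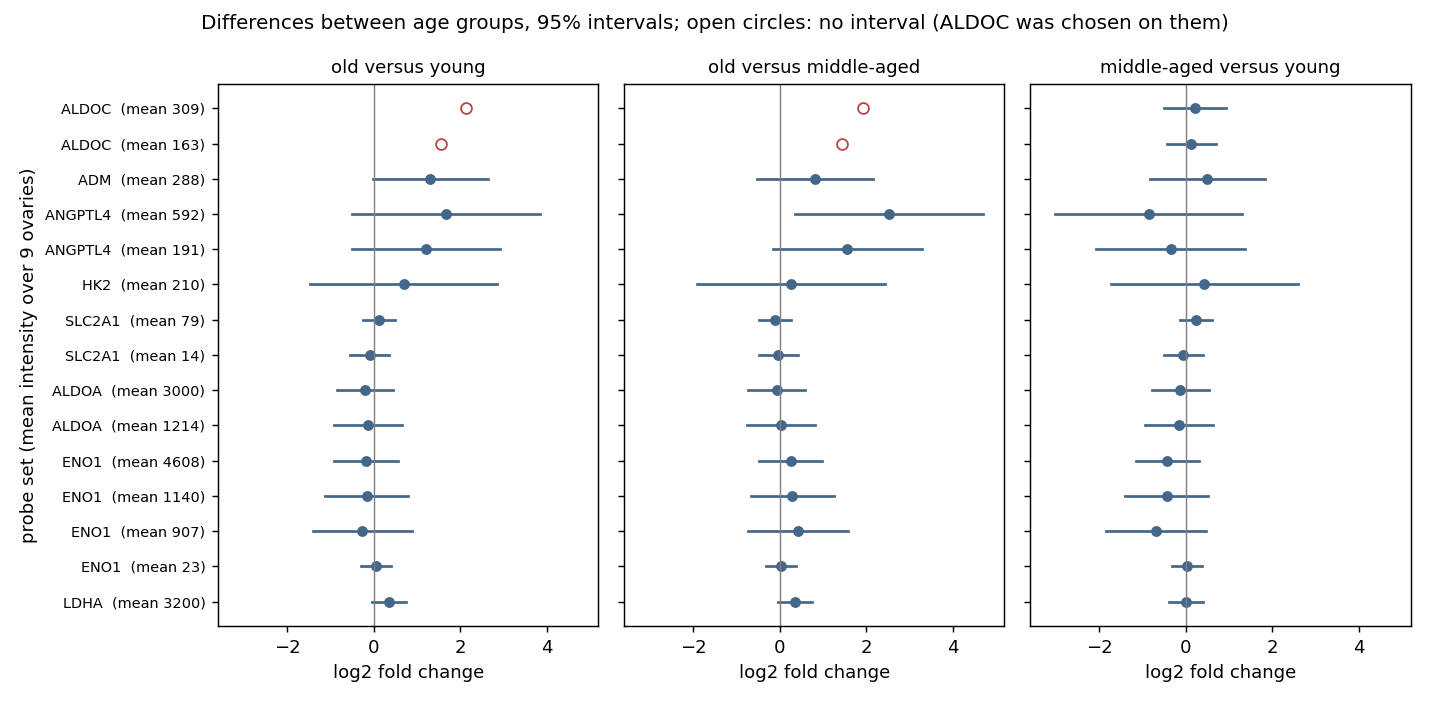
Log2 fold change of each of 15 probe sets in 3 comparisons of age groups (3 ovaries each), with lines for 95% intervals from limma. Open circles mark the ALDOC differences on which the gene was chosen, given with no interval. ANGPTL4 and HK2 have the widest intervals, from -0.50 to 3.84 and from -1.48 to 2.87 for their brightest probe sets in old versus young, and those of SLC2A1, LDHA and the dim ENO1 probe set are the narrowest.

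ANGPTL4, ADM and HK2 were highest in the same old ovary, old 1. ANGPTL4, a secreted inhibitor of lipoprotein lipase that is induced both by low oxygen and by fatty acids, read 289.5, 162 and 175 in young, 113, 142 and 84.4 in middle-aged and 3784, 174 and 401 in old ovaries. Old 1 was 9.44 times the next highest array, old 3 was next, and old 2 lay within the young range. The log2 fold change in old versus young was 1.67, with a 95% interval from -0.50 to 3.84 and an adjusted p of 0.486 by limma. Against the middle-aged ovaries it was 2.53 (interval 0.36 to 4.71, adjusted p = 0.586). Its second probe set read 984 in old 1 and between 68.2 and 120 on the other 8 arrays, with a correlation of 0.975 between both probe sets.

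ADM, the precursor of the vessel-widening peptide adrenomedullin, read 208, 121 and 136 in young, 199, 198 and 245 in middle-aged and 947, 141 and 396 in old ovaries. Old 1 and old 3 lay above all younger ovaries and old 2 among them. The log2 fold change in old versus young was 1.31 (SE 0.58, 95% interval -0.02 to 2.64), with an adjusted p of 0.378 by limma. In old versus middle-aged it was 0.82 (interval -0.51 to 2.15).

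HK2, the hexokinase that insulin and low oxygen induce and that binds to mitochondria, read 128, 98.9 and 84.3 in young, 205, 129 and 98.3 in middle-aged and 1012, 52.2 and 85.1 in old ovaries. Old 1 was 4.93 times the next highest array, while old 2 was the lowest of all 9. The log2 fold change was 0.69 in old versus young (95% interval -1.48 to 2.87, adjusted p = 0.795 by limma).

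These 3 genes rest on old 1, which was at least 2-fold above every other array in 4 of the 15 probe sets (ADM, HK2 and both of ANGPTL4), beside 1.87% of all probe sets tested. Without old 1, the log2 fold change in old versus young was 0.64 for ADM, 0.39 for ANGPTL4 and -0.61 for HK2. Without old 2, it was 2.02 for ADM (adjusted p = 0.084), 2.61 for ANGPTL4 (adjusted p = 0.229) and 1.52 for HK2 (adjusted p = 0.522). ALDOC did not share the peak, since its brighter probe set in old 1 was 0.407 times that of the next highest array. Over the 9 arrays the correlation with ALDOC in log2 intensity was 0.31 for ADM, 0.35 for ANGPTL4 and -0.08 for HK2, a description over ovaries that share the division into age groups.

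Markers of several cell types were also high in old 1. Of the 6 measured genes of steroid-making and luteal cells, 4 were highest there, among them STAR, the carrier of cholesterol into mitochondria, with 21680 against 646 to 2942 in the younger ovaries, 12230 in old 2 and 3448 in old 3. Their summed intensity was 2033 to 6715 in young, 1756 to 6801 in middle-aged and 7751 to 37681 in old ovaries. CYP17A1, however, read 337 in old 1, within its younger range of 184 to 1341 and below old 2 (3053) and old 3 (2105). NR5A1, at 33.6 in old 1, also lay within its younger range of 26.0 to 42.4. Of the 10 macrophage genes 7 were highest in old 1 as well, although their sums (2267 to 2908, 2001 to 3527 and 2635 to 3682) overlapped. Of the 8 granulosa genes 3 were highest in old 1, namely CYP19A1, the aromatase that makes estrogen, with 1389 against 42.2 to 128 elsewhere, and the inhibin subunits INHA with 6350 and INHBA with 2343. Others went the opposite way, since AMH (56.4), HSD17B1 (126.7) and SERPINE2 (3561) were at their lowest of the 9 arrays in old 1. INHBB and NR5A2 lay in between. The median log2 deviation of the granulosa list was 0.75 in old 1, -0.43 in old 2 and -0.89 in old 3, while its sums overlapped (10842 to 29409, 12591 to 23924 and 8304 to 18041). The summed endothelial genes were highest in old 3, with ranges of 2534 to 2987, 3177 to 6050 and 3487 to 11565 in the 3 groups. The summed adipocyte genes reached 12210 in old 3 against at most 1145 in the younger ovaries, of which 11080 came from FABP4, the fatty acid binding protein of fat cells. CIDEA, GPD1 and THRSP were also highest in old 3, whereas ADIPOQ, the adiponectin gene, read 421.6 there and 456 to 561 in the younger ovaries, and LEP and RETN lay within the younger range. Immediate-early genes, which respond to handling of tissue, summed to 1460 to 3777, 2282 to 7841 and 3065 to 7925. None of the measured genes of these 6 lists was below the first quartile of all probe sets on every array. The part of these cells and of handling in the values of ADM, ANGPTL4 and HK2 was not tested.

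ALDOC was highest in old 2, then old 3, then old 1, an order that most marker lists did not have. As the median log2 deviation from each gene's mean over 9 arrays, the steroid-making list stood at 2.46 in old 1, 1.80 in old 2 and 0.10 in old 3, the endothelial list at 0.63, -0.46 and 1.36, and the neuron and Schwann cell list at -0.05, 0.02 and 0.04. The summed neuron and Schwann cell genes nevertheless reached 5519 in old 1, against 474 to 1116 on the other arrays, with 1 of the 8 genes highest there. The stroma list had the order of ALDOC, at -0.44, 0.07 and -0.01, but its summed intensity overlapped between the groups (15455 to 17719 in young, 19428 to 34437 in middle-aged and 12576 to 27739 in old ovaries), and none of its 7 genes had all 3 old ovaries above the other 6. Of the technical lists, heat shock genes had that order too (-0.20, 0.02 and -0.09), with sums of 6804 to 7513 in old and 7245 to 9129 in the younger ovaries. Whether a cell type carries the ALDOC difference was not tested.

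**Figure D3:**
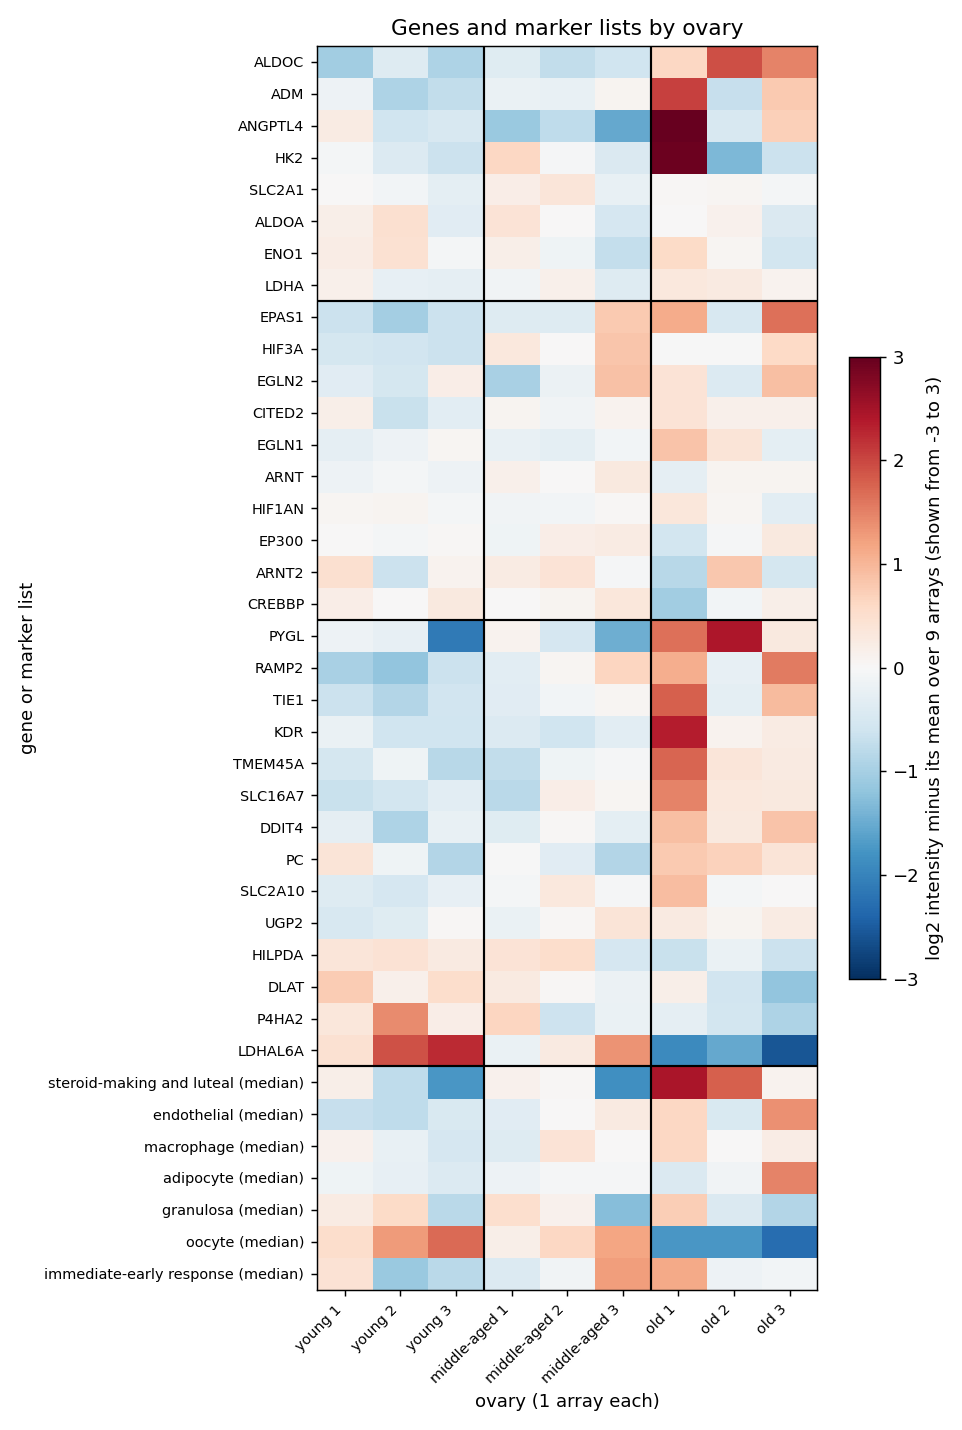
Log2 intensity minus its mean over the 9 arrays, by ovary, for the 8 members, the 10 measured oxygen sensing genes, the pathway genes with the smallest p in old versus young, and the medians of 7 marker lists, red for higher and blue for lower. The 3 old columns are red for ALDOC, red chiefly in old 1 for ADM, ANGPTL4 and HK2, and near white for SLC2A1 and LDHA.

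No difference between age groups was called for the glycolytic enzymes LDHA, ALDOA and ENO1. LDHA, the lactate dehydrogenase subunit that favours making lactate from pyruvate, read 3535, 2655 and 2627 in young, 2930, 3493 and 2405 in middle-aged and 3927, 3816 and 3408 in old ovaries. The 3 old values were among the 5 highest, but old 3 lay below young 1 and middle-aged 2. The log2 fold change was 0.35 in old versus young (95% interval -0.05 to 0.75, adjusted p = 0.425 by limma) and 0.35 in old versus the young and middle-aged means combined (adjusted p = 0.374).

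ALDOA, which does the same reaction as ALDOC, read 3318, 4093 and 2303 in young, 3909, 2967 and 2071 in middle-aged and 2965, 3208 and 2165 in old ovaries, so the groups overlapped fully. Its log2 fold change in old versus young was -0.20 (SE 0.29), with a 95% interval from -0.86 to 0.46. The second ALDOA probe set read 1302, 1702 and 874 in young, 1650, 1150 and 752 in middle-aged and 1261, 1390 and 846 in old ovaries, with a log2 fold change of -0.13.

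ENO1, the enolase of most tissues, had 4 probe sets, of which the brightest read 5179, 6066 and 4227 in young, 4985, 4062 and 2695 in middle-aged and 6634, 4620 and 3005 in old ovaries. Its log2 fold change was -0.18 in old versus young (95% interval -0.91 to 0.56) and -0.43 in middle-aged versus young (interval -1.16 to 0.30). Another pair of probe sets followed it closely, with correlations of 0.995 and 0.997. The fourth read 18.7 to 27.1, near the array medians, and did not follow the others, with correlations of 0.19 to 0.23.

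SLC2A1, the glucose carrier of red cells and barriers and a standard target of the low-oxygen response, was the most even over the 9 arrays of the 8 measured genes, by their brightest probe sets. It read 79, 74.5 and 64.2 in young, 90.8, 100.4 and 67.7 in middle-aged and 79.9, 82 and 75.1 in old ovaries. The log2 fold change was 0.13 in old versus young, with a 95% interval from -0.24 to 0.49, and -0.11 in old versus middle-aged, with an interval from -0.47 to 0.26. A second, dim probe set (10.9 to 18.1) did not follow the first (correlation 0.09).

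Among ALDOA, ENO1, LDHA and SLC2A1 the order within the groups was shared instead. The array numbered 3 was the lowest of its group in all 3 groups in 7 of the 15 probe sets, namely both of ALDOA, 3 of ENO1, that of LDHA and the brighter of SLC2A1, beside 7.94% of all probe sets tested. The GAPDH control of the array, which has probe sets at both ends of the transcript, also set array 3 apart. Its log2 difference between the 3′ and the 5′ probe set was 1.77, 1.996 and 2.28 in young, 1.70, 1.88 and 2.23 in middle-aged and 1.68, 2.12 and 2.40 in old ovaries, in each group lowest on array 1 and highest on array 3. Over the 9 arrays the correlation with this difference was -0.72 for ALDOA, -0.74 for ENO1, -0.63 for SLC2A1 and -0.38 for LDHA in their brightest probe sets, and 0.29 for ALDOC. The part of RNA ends in these values was not tested.

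**Figure D4:**
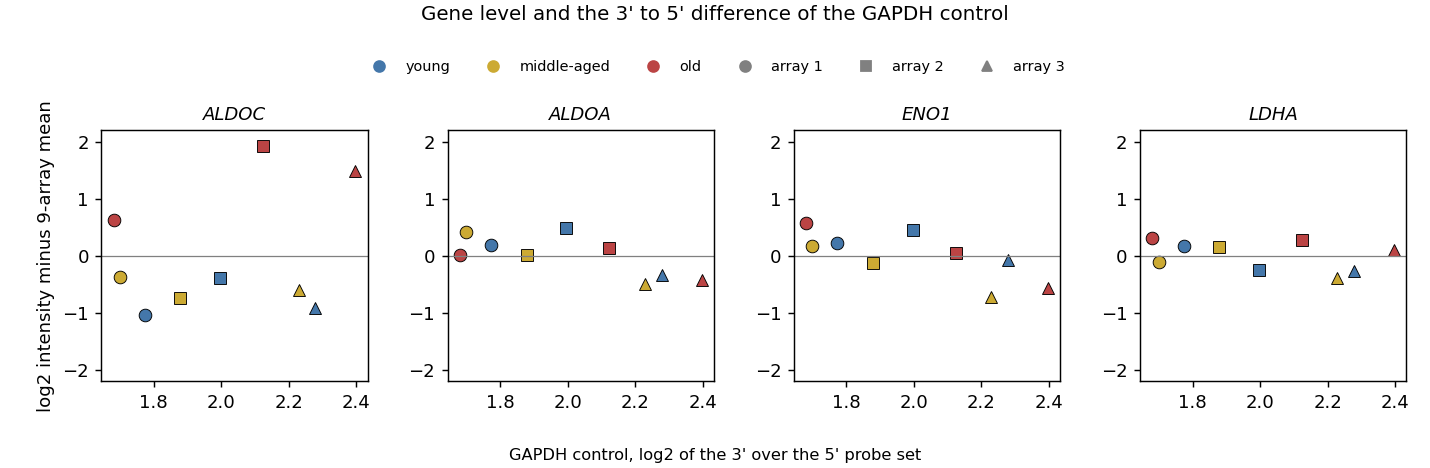
Log2 intensity minus its mean over 9 arrays (vertical axis) of ALDOC, ALDOA, ENO1 and LDHA against the log2 difference between the 3′ and 5′ probe sets of the GAPDH control (horizontal axis), 1 point an ovary. Within each group, ALDOA and ENO1 are lowest on the triangle (the array numbered 3), where the difference is 2.23 to 2.40. ALDOC was chosen for being highest in the 3 old ovaries, so nothing is read from their place in its panel.

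The wider pathways were read from 10 lists with 152 genes, of which 104 had a probe set of a single symbol (the brightest was taken). By limma, 0 of the 104 were called in each of the 4 comparisons. At an unadjusted p under 0.05, there were 18 in old versus young (17.3%, 13 higher and 5 lower), 13 in old versus middle-aged (12.5%), 5 in middle-aged versus young (4.81%) and 19 in old versus the young and middle-aged means combined (18.3%), beside the shares of all probe sets given above. Those shares also cover 27449 probe sets with no symbol and the dimmer probe sets of a gene, so the sets are unlike and no excess is read. The same holds for the counts by list below, which stand beside 13.5% of all probe sets in old versus young. The median log2 fold change of the 104 genes was 0.14 in old versus young, and that of all named genes was -0.0046.

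The remaining glycolytic enzymes gave 0 of 14 at an unadjusted p under 0.05 in old versus young, with a median log2 fold change of -0.07. HK3, a hexokinase of white blood cells, was higher by 1.18 on the log2 scale (adjusted p = 0.416), with old 2 at 516 where the other arrays read 56.7 to 118. PFKP, a phosphofructokinase subunit, had -1.65 (adjusted p = 0.378), with 560.3, 49.3 and 202 in the old ovaries and 311 to 735 in the others. ENO2, the enolase of neurons, had -0.38, and the ADP-dependent glucokinase ADPGK 0.30.

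Among regulators of glycolysis and genes of glucose synthesis, 1 of 9 reached an unadjusted p under 0.05. This was pyruvate carboxylase (PC), with 198, 137 and 81.6 in young, 148, 118 and 81.8 in middle-aged and 259, 243 and 195 in old ovaries and a log2 fold change of 0.83 (adjusted p = 0.333 by limma). Only young 1 reached into the old range. PFKFB1 had 0.23 and FBP1 had -0.40 in old versus young. FBP1, a fructose bisphosphatase, differed by -0.97 in middle-aged versus young (adjusted p = 1).

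Genes for the fate of lactate and pyruvate gave 3 of 14, namely SLC16A7, DLAT and LDHAL6A. SLC16A7, a carrier of lactate and pyruvate, read 31.8, 34.7 and 40.7 in young, 29.1, 58.1 and 52.9 in middle-aged and 141, 63.5 and 61.8 in old ovaries, so all old ovaries were above the others (log2 fold change 1.21, adjusted p = 0.221 by limma). DLAT, a subunit of the pyruvate dehydrogenase complex, had -0.996 (adjusted p = 0.248). PDK2, a kinase that inhibits that complex, had 0.55 (adjusted p = 0.373).

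LDHAL6A, a lactate dehydrogenase subunit best known from testis, came closest to a call. It read 104, 282 and 358 in young, 65.8, 91.2 and 194 in middle-aged and 20.2, 26 and 12.7 in old ovaries, and its log2 fold change was -3.54 in old versus young (adjusted p = 0.0642 by limma). The highest old ovary lay below the lowest of the other 6. The oocyte markers were low in the same ovaries, at a median log2 deviation of -1.74 in old 1, -1.74 in old 2 and -2.29 in old 3, and their part in this difference was not tested. Without young 1 the adjusted p of LDHAL6A was 0.0421.

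Glucose carriers gave 1 of 10, SLC2A10, with 0.67 (adjusted p = 0.311) and a high value of 741 in old 1 against 275 to 484 elsewhere. SLC2A5, the fructose carrier, had -0.37 in old versus young and -0.83 in middle-aged versus young (adjusted p = 1). SLC2A4, the carrier of muscle and fat that insulin moves to the cell surface, was dim, with 8.62 to 15, and SLC2A11 had -0.63.

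Glycogen genes gave 2 of 4. PYGL, the liver form of glycogen phosphorylase, read 451, 423 and 115 in young, 544, 356 and 182 in middle-aged and 1580, 2712 and 619 in old ovaries. All old ovaries were above the other 6, old 2 again highest, and the log2 fold change was 2.30 in old versus young (adjusted p = 0.223 by limma). In each group array 3 was the lowest, as for ALDOA. UGP2, which makes the UDP-glucose used for glycogen, had 0.47 (adjusted p = 0.321).

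The oxygen sensing genes gave 3 of 10 in old versus young. EPAS1, which encodes the alpha subunit HIF-2 alpha and is abundant in endothelium, read 705, 548 and 708 in young, 842, 842 and 1886 in middle-aged and 2370, 794 and 3490 in old ovaries. Old 2 lay between the young and the middle-aged values, and the log2 fold change was 1.53 in old versus young (adjusted p = 0.275 by limma). The endothelial markers other than ENG were likewise higher in old 1 and old 3 than in old 2. ENG read 727, 974 and 974.4 in old 1, old 2 and old 3. The part of the endothelial markers in the EPAS1 values was not tested. HIF3A, a further alpha subunit, was between 68.1 and 73.7 in young, 106 and 189 in middle-aged and 105 and 159 in old ovaries. It differed by 0.77 in old versus young (adjusted p = 0.226), by 0.96 in middle-aged versus young (adjusted p = 1) and by -0.20 in old versus middle-aged.

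CITED2, which competes with the alpha subunits for their co-activators, had 0.50 (adjusted p = 0.340). The prolyl hydroxylases that mark the alpha subunits for destruction, EGLN1 and EGLN2, had 0.43 and 0.52, and HIF1AN, the asparagine hydroxylase that blocks co-activator binding, had 0.00. The partners ARNT and ARNT2 had 0.09 and -0.16. The co-activators CREBBP and EP300 had -0.48 and -0.09, with the lowest values of all arrays in old 1 (309.7 and 686). Apart from CITED2, these 7 all had an unadjusted p of at least 0.05. HIF1A, EGLN3 and VHL were not analysed here.

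Of the other low-oxygen response genes, 5 of 24 reached an unadjusted p under 0.05 in old versus young, 2 higher and 3 lower. DDIT4, an inhibitor of mTORC1 that is induced by low oxygen and by other stresses, read 491, 312 and 512 in young, 461, 609.8 and 484 in middle-aged and 1102, 721 and 1071 in old ovaries. All old ovaries were above the other 6, with a log2 fold change of 1.15 in old versus young (adjusted p = 0.118) and 0.88 in old versus middle-aged (adjusted p = 0.445 by limma). TMEM45A had 1.29 (adjusted p = 0.230), again with all old ovaries above the others (514 to 1446 against 241 to 421). HILPDA, a lipid droplet protein, had -0.86 (adjusted p = 0.229) and P4HA2, a collagen prolyl hydroxylase subunit, -1.24 (adjusted p = 0.246).

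Vessel genes gave 2 of 11 in the list of VEGF and angiopoietin ligands and receptors. TIE1 read 141, 120.4 and 147 in young, 175, 206 and 229.7 in middle-aged and 758, 181 and 426 in old ovaries, a difference of 1.52 on the log2 scale (adjusted p = 0.205). KDR, the main VEGF receptor, was dim, at 8.37 to 11 in the younger and 64.3, 13.6 and 15.1 in old ovaries (1.36, adjusted p = 0.313). The ligands PGF and VEGFB had -0.17 and -0.00. RAMP2, the partner that makes the calcitonin receptor-like receptor bind adrenomedullin, read 179, 156 and 226 in young, 284, 371 and 548 in middle-aged and 749.8, 300 and 1038 in old ovaries. Its log2 fold change was 1.74 in old versus young (adjusted p = 0.164) and 1.06 in middle-aged versus young (adjusted p = 1). As with EPAS1, TIE1 and RAMP2 were high in old 1 and old 3 and lower in old 2, as the endothelial markers other than ENG were. Without old 2, TIE1 (adjusted p = 0.0299) and RAMP2 (adjusted p = 0.0394) were called in old versus young. That fit left out the lowest old ovary for both genes. It called 198 of all probe sets in old versus young, against 82 in the main fit. Nothing specific to TIE1 or RAMP2 is therefore read from these calls.

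Of the other 3 measured partners of adrenomedullin, ACKR3 and RAMP1 had 0.97 and -0.45 in old versus young, with adjusted p of 0.436 and 0.705. The receptor CALCRL was dim, with 24, 14.6 and 11.6 in old and 8.35 to 21.4 in the younger ovaries, and had 0.64 (adjusted p = 0.493 by limma, named after its value was seen). Of the genes around ANGPTL4, 0 of 4 reached an unadjusted p under 0.05. ANGPTL2 had 0.44, LPL, the lipase that ANGPTL4 inhibits, -0.16, and its anchor on capillaries GPIHBP1 0.26. LPL read 155 in old 1, where ANGPTL4 was 3784, within the 146 to 321 of the other arrays.

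Besides FBP1, SLC2A5, HIF3A and RAMP2, the fifth pathway gene with an unadjusted p under 0.05 in middle-aged versus young was LOX, the collagen cross-linking enzyme (log2 fold change 0.96), which is named after its value was seen.

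Of the 104 pathway genes, 5 (SLC16A7, PYGL, DDIT4, TMEM45A and KDR) had all 3 old ovaries above the other 6, the order for which ALDOC was chosen, beside 2.45% of all probe sets. That share, too, covers probe sets with no symbol and the dimmer ones of a gene. Among the 14132 named genes of the array, those whose log2 intensity had the highest Pearson correlation with the brighter ALDOC probe set over the 9 ovaries were MED26 (0.942), CCL14 (0.937), ACBD4 (0.931), CHRM5 (0.930), SLC17A7 (0.927) and TRIB3 (0.920). Their differences in old versus young were small beside that of ALDOC, with log2 fold changes of 0.26, 0.36, 0.39, 0.81, 0.31 and 0.50. CHRM5 (9.8 to 24.8) and SLC17A7 (6.14 to 8.59) were dim. None of the 6 was above 70.6 on any array, and 0 of them were called, beside 0.155% of all probe sets in old versus young. They were picked for following ALDOC, which was itself chosen for its order, so nothing is read from their differences or that count. LDHA had the highest correlation with ALDOC of the other members, at 0.55.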

How the data were processed

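Ovarian RNA of 9 monkeys was hybridised to 1-colour Affymetrix rhesus arrays. Per the labels, the authors made the deposited intensity values with RMA (version not given in the sources used here), 1 linear value per probe set. The methods of the study describe LOWESS and dye reversal instead, steps for 2-colour slides, so the route rests on the labels. Detection calls and batches were not used here, so signal over background is unknown and the number of arrays limits the precision. RMA shrinks differences of dim probe sets.

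After removal of 99 control probe sets, log2 intensities of 52766 probe sets were fitted with limma 3.58.1 in R 4.3.3, with 1 mean per age group over all 9 arrays and empirical Bayes variances. The fit was tested on simulated data. Symbols came from GEO's platform annotation, which names 24956 probe sets with 1 symbol. The study names SAM with a 1.5-fold minimum but no settings.

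The members and gene lists were chosen with earlier results of these data known. Named are all members, the oxygen sensing genes, in each other pathway list up to 2 higher and 2 lower genes with the smallest unadjusted p in old versus young, and the 6 genes most correlated with ALDOC. Alternatives were median centring, quantile normalization, brighter probe sets only, trended or robust variances, array weights, no fold minimum, only the groups compared, averaged probe sets, a replicate block, each array left out and the 3 arrays numbered 3 left out.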

Additional observations from a re-analysis of the deposited data

How the results depend on the processing

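Under every alternative run for each comparison (20, or 19 for old versus the young and middle-aged means combined), 0 member probe sets other than ALDOC were called, with a smallest adjusted p of 0.084 in old versus young, 0.25 in old versus middle-aged, 0.0868 in old versus the combined means and 0.788 in middle-aged versus young. The ALDOC log2 fold change ranged from 1.84 to 2.49, from 1.63 to 2.28 and from 1.74 to 2.38 in the 3 old comparisons. These ALDOC ranges are a description, since the gene was chosen for that difference. Among 573 uncalled member values, 1 per gene, comparison and alternative, 29 had the sign opposite to the main fit. These values repeat the same few differences under each alternative. The count of pathway genes called, 0 above, was 1 in old versus young and 1 in old versus the combined means with brighter probe sets only and with averaged probe sets (LDHAL6A each time). With the replicate block it was 2 in old versus young (LDHAL6A and PYGL, the latter with an adjusted p of 0.0383) and 1 in old versus the combined means (PYGL, adjusted p = 0.0313), and with 1 array left out it ranged from 0 to 2 and from 0 to 1. This check of pathway genes was added after the data were seen. Counts over all probe sets moved more, from 2 (without the arrays numbered 3) to 229 (replicate block) in old versus young, from 1 to 42 in old versus middle-aged, from 0 to 1 in middle-aged versus young and from 12 to 206 in old versus the combined means. With only the groups compared, old versus young gave 27, without young 2 it gave 4, without young 3 it gave 9 and without old 2 it gave 198. Deviations of arrays with the same number had correlations of -0.02 to 0.41 (9 pairs, 5 over 0.1) and of arrays with different numbers -0.42 to 0.25, so the numbers were not taken to pair the animals. The causes were not tested. With 3 arrays a group, the intervals of ADM, ANGPTL4 and HK2 allow differences of over 2-fold in old versus young.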
